A study of Mus musculus with 96 samples.

Results

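CC045 is 1 of 42 Collaborative Cross strains whose calvarial osteoblast cultures were profiled by total RNA sequencing, and 2 of the 96 samples carry its label. The strain was singled out by measured values: in these 2 libraries a set of immediate early genes stood far above the unweighted mean of the other 38 strains that have 2 or more libraries (90 libraries). The differences between CC045 and those strains are therefore given as a description, with their standard errors (SE) and without p-values, and the p-values below come only from libraries other than those of CC045. Collaborative Cross mice are recombinant inbred lines derived from a shared set of founders, so each strain carries its own fixed mosaic of founder genomes. All strains were treated alike, with no transgene or drug arm and the other strains as the only reference. Heads of pups aged 3 to 5 days travelled chilled overnight, calvaria were digested with trypsin and collagenase, and the released cells grew for 48 h before 10 days of differentiation with ascorbic acid and beta-glycerol phosphate. RNA was taken from the mineralized wells, and rRNA-depleted stranded libraries of RNAs above 200 nt were made from 200 ng. The labels do not say whether the 2 libraries of a strain come from separate animals, litters or cultures, so the spread between them may be technical.

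Immediate early genes are transcribed within minutes of a stimulus such as serum, a growth factor, mechanical load or a hormone, without new protein synthesis, and their RNAs decay quickly. Kinase pathways reach them through transcription factors already present in the cell: serum response factor with its ternary complex partners binds the CArG box, and CREB and ATF proteins bind the cyclic AMP response element. Their products are transcription factors of the AP-1, EGR and NR4A families, phosphatases and adaptors that switch the signal off, proteins that shorten mRNAs, and secreted factors. In osteoblasts the family is known for its fast response to parathyroid hormone and to fluid flow.

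The promoters of 7 of the genes that stood highest in CC045 are printed first, because they hold matches to elements known from the induction of such genes. Whether these matches are bound or used in the cultures was not measured. Each line is the 250 bases before the transcription start, 5′ to 3′ on the gene's strand, from RefSeq on GRCm38.p6, with 2 kinds of match in capitals: the CArG box and the core of the cyclic AMP element (TGACG on either strand, so also CGTCA). The windows are chr12:85473640-85473889 (plus strand) for Fos, chr1:134079156-134079405 (minus) for Btg2, chr15:101266596-101266845 (plus) for Nr4a1, chr10:67537619-67537868 (plus, 1 of 5 starts) for Egr2, chr8:84978749-84978998 (minus) for Junb, chr17:26508473-26508722 (minus) for Dusp1 and chr19:53528895-53529144 (plus) for Dusp5.
Fos: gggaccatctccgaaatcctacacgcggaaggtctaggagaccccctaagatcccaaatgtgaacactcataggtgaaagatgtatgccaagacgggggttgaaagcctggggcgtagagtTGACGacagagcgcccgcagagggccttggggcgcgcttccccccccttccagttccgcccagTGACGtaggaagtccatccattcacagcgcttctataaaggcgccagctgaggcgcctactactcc
Btg2: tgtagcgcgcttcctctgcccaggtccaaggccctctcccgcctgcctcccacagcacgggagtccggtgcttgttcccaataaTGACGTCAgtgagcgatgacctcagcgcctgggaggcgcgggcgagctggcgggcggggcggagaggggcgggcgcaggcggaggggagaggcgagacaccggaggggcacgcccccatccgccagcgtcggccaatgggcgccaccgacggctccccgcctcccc
Nr4a1: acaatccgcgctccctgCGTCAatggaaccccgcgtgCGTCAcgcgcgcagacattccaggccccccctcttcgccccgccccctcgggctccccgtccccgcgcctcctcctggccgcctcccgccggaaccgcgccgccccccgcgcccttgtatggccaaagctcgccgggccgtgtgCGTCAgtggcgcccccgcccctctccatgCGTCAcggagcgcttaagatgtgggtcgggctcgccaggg
Egr2: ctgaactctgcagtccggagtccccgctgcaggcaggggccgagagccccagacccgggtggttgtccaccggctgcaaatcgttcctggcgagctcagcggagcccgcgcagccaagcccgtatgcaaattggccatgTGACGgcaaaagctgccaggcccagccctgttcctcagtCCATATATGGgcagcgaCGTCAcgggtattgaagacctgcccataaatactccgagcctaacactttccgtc
Junb: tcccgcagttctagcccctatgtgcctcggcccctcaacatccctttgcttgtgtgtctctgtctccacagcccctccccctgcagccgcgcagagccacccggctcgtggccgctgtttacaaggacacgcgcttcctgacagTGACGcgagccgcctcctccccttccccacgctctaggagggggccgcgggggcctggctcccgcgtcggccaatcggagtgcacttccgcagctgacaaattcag
Dusp1: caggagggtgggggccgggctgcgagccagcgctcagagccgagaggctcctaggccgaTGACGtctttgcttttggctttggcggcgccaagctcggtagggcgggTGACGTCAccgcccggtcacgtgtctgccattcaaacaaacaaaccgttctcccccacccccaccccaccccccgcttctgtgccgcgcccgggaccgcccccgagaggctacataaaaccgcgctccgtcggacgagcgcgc
Dusp5: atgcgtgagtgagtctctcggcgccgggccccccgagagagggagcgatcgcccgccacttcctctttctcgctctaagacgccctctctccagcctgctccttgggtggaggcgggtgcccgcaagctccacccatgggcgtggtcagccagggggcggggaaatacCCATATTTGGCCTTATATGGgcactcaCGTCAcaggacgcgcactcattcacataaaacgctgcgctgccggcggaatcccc

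In the Btg2 and Dusp1 lines the full palindrome TGACGTCA is present, which holds 2 overlapping cores, at -166 and -163 in Btg2 and at -143 and -140 in Dusp1 (bases counted back from the start). Fos has cores at -129 and -66 and Nr4a1 has 4, at -233, -213, -69 and -40. The Egr2 window, picked among its 5 starts for its matches with CArG boxes put first, holds a CArG box at -72. Dusp5 holds 2 that lie end to end, at -82 and -72. Windows of 300 bases (250 before to 50 after the start) were found for 69 of the 94 listed genes, 88 windows in all, and for 9 of the 12 genes that stood highest. A core lay in all 9 of those, in 40 of the 69 (58%) and in 23% of the 27025 genes of the promoter table (20.8% of its 32851 windows). Among the 69 it lay in 16 of the 24 called higher in CC045 (below) and in 24 of the 45 others. The 9 were picked on the CC045 values, so nothing is read from their share. A CArG box lay in 5 of the 69 (7.25%: Egr2, Dusp5, Zfp36, Rnd3 and Srf) against 1.81% of all genes. The full palindrome lay in 7 of the 69 (10.1%) against 2.03%. These are matches of letters only, and several starts per gene give a gene more chances to hold one. Elements more than 250 bases before the start lie outside the windows. A missing match, such as the CArG box in Fos, therefore does not show that the gene lacks the element. Ier2, Arc and Egr1 were among the 25 listed genes without a window.

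Across the list of 94 immediate early genes, 93 passed the filter on low values (at least 0.5 transcripts per 1000000, TPM, in 2 or more libraries) and Egr4 did not. The filter counted the CC045 libraries too, so low genes such as Nr4a3 and Edn1 may have passed it only through CC045. Levels are scaled TPM, a per-length unit, so genes can be compared, and differences are on the log2(scaled TPM + 0.5) scale, which understates those of low genes. In CC045, 31 of the 93 (33.3%) were called higher at a false discovery rate of 0.05 and 0 were called lower, beside 5.02% of all 15760 genes called higher and 5.06% called lower in the same comparison. As the strain was chosen on this contrast, nothing is read from that count. The median difference of the list was 0.34, against -0.02 over all genes tested. Of the 93 differences 80 were above 0, beside 7355 of the 15760 over all genes. CC045 had the highest mean of the 39 strains in 19 of them. For 11 genes (Fos, Btg2, Nr4a1, Ier2, Junb, Dusp1, Arc, Egr1, Ccn1, Plk3 and Edn1) both CC045 libraries lay above each of the 90 other libraries. The shares of all genes with the highest mean or without overlap were not worked out. Nothing is read from these ranks and overlaps, here or below, as the high values singled out the strain. Without replicate 2 the count of genes called higher was 20, and without replicate 1 it was 25; 19 of the 31 were called with either library left out. Those that lost the call with either one left out were Id1 (1.19 without replicate 1, 1.1 without replicate 2), Plaur (0.74, 0.6), Klf6 (0.5, 0.47), Tob1 (0.47, 0.46) and Rnd3 (0.35, 0.28). F3 lost it without replicate 1 (0.34), and Errfi1 (1.22), Cdkn1a (0.56), Nr4a2 (0.69), Hes1 (0.55), Fosb (0.49) and Rhob (0.51) without replicate 2.

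**Figure D1:**
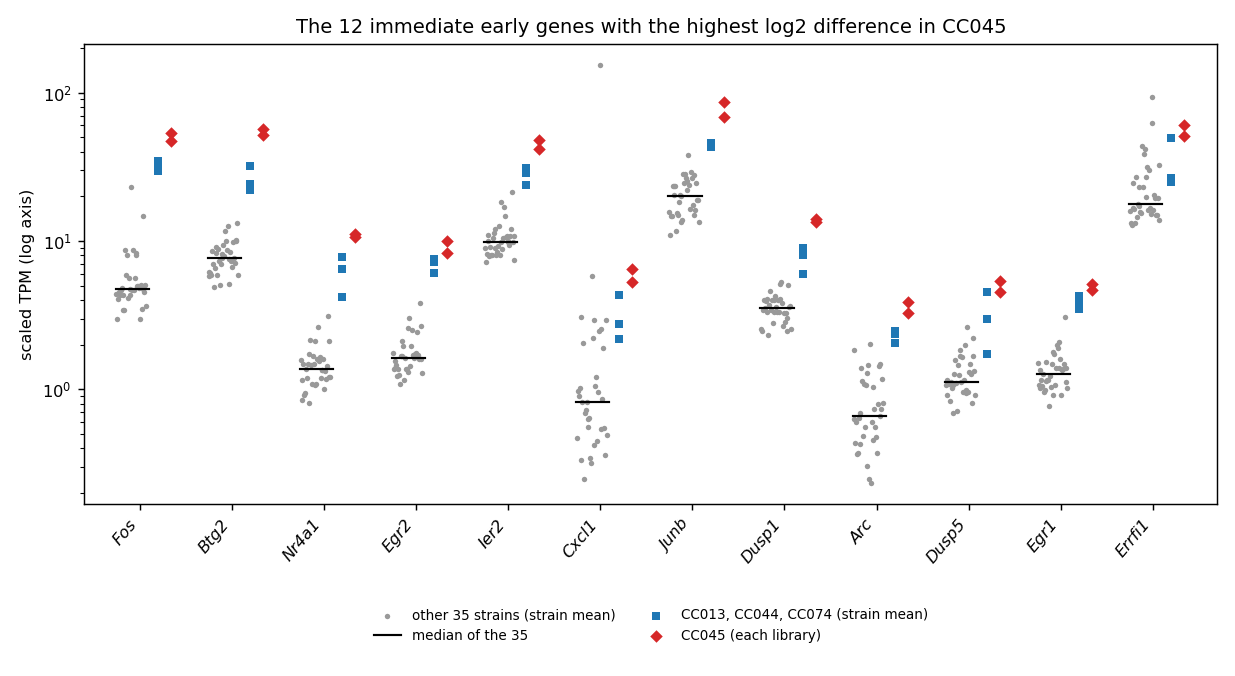
Scaled TPM on a log axis of the 12 immediate early genes with the highest log2 difference in CC045: grey points are the means of 35 strains with a line at their median, blue squares the means of CC013, CC044 and CC074, red diamonds the 2 CC045 libraries. Fos lies at 46.9 and 53 in CC045, the blue squares sit between the grey cloud and the red diamonds in most genes, and 1 strain (CC051) is far above all others for Cxcl1.

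The AP-1 family, whose FOS and JUN members pair to bind DNA, was split in CC045, with 3 of 8 members called higher. Fos, the canonical serum-induced member, was at 46.9 and 53 scaled TPM in the 2 libraries, while the other 38 strain means ran from 2.98 through a median of 4.78 to 34.4 in CC074. Its difference was 2.96 ± 0.29 (SE) on the log2 scale, a 7.8-fold ratio, with no overlap. Junb, a JUN protein that pairs with FOS, was at 69.0 and 86.8 against 10.9 to 45.8 (median 20.5), a difference of 1.89 ± 0.26. Fosb was low but called higher, at 0.473 and 0.76 against a median of 0.17. The other 5 members were not called: Jun was at 12.9 and 15.9 (median of the others 10.3), Jund at 13.2 and 20.2 (16.3), Fosl2 at 17.9 and 16.9 (14.7) and Fosl1 at 1.29 and 2.31 (1.89). Atf3, a stress-induced partner of JUN, was at 7.6 and 8.51 against a median of 7.69 and ranked 19th of 39.

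All 3 NR4A receptors, orphan nuclear receptors induced by hormones that raise cyclic AMP, were called higher. Nr4a1 was at 10.6 and 11.2 against 0.807 to 7.76 (median 1.45), 2.45 ± 0.21, with no library of another strain inside its range. Nr4a2 was at 2.6 and 2.87 (median of the others 1.37) and was exceeded by the CC051 mean of 4.35. Only 1 of the 90 other libraries reached its lower CC045 value. Nr4a3 was at 0.598 and 0.426, above the highest other strain mean of 0.369 in CC030. These values lie near the filter, which Nr4a3 may have passed only through CC045. Of the EGR zinc-finger factors, Egr2 was at 8.23 and 9.92 against 1.09 to 7.5 (median 1.68), 1.98 ± 0.17, and 2 of the 90 other libraries reached the lower CC045 value. Egr1 was at 4.69 and 5.1 against 0.768 to 4.28 (median 1.36), 1.49 ± 0.23, with no overlap. Egr3 was also called, at 0.716 and 0.594 (median 0.186). The EGR co-repressors Nab1 and Nab2 lay near the middle of the strains, with differences of 0.05 ± 0.12 and 0.03 ± 0.12.

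Genes that limit growth or shorten mRNAs (4 of 10 called higher) were led by Btg2, which recruits deadenylases and restrains division. It was at 52.0 and 57.1 in CC045 against 4.88 to 32.1 (median 7.8), 2.62 ± 0.16, a 6.17-fold ratio. Zfp36, which targets AU-rich mRNAs for decay, was at 3.86 and 4.14 (median of the others 2.14), and its relatives Zfp36l1 and Zfp36l2 were not called (-0.01 ± 0.17 and -0.17 ± 0.27). Tob1, a BTG relative, was at 8.79 and 8.87 (median 6.38), the highest strain mean. Cdkn1a, the cyclin-dependent kinase inhibitor p21, was at 50 and 67.9, within the range of the others (18.8 to 68). The 3 Gadd45 genes, stress-induced growth arrest factors, were not called. Gadd45b, with 14.6 and 14.9 against a median of 17.3, was among the 4 lowest members of the list.

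Genes of kinase signalling and its feedback, both kinases and inhibitors, were again divided, with 5 of 19 called higher and 0 lower. Dusp1, a nuclear phosphatase of MAP kinases, was at 14.0 and 13.4 against 2.31 to 8.99 (median 3.59), 1.76 ± 0.18, above every other library. Dusp5, a phosphatase of nuclear ERK, was at 4.56 and 5.37 against 0.695 to 4.5 (median 1.16), 1.59 ± 0.17, and 1 library of another strain overlapped. Errfi1, an inhibitor of the EGF receptor, was at 50.7 and 60.5 against 12.8 to 94.0 (median 19.5), 1.35 ± 0.37, and CC045 ranked 3rd. The Polo-like kinases Plk3 (4.13 and 4.55, median of the others 2.15) and Plk2 (25.0 and 25.4, median 15.2) were called higher as well. Other members of the DUSP family did not stand out: Dusp6 was at 10.7 and 12.0 (median 10.0), Dusp2 at 0.226 and 0.258 (median 0.228) and Dusp10 at 2.47 and 2.49 (median 2.24). Dusp4, at 0.954 and 0.897 against a median of 1.37, and Tnfaip3, a brake on NF-kB at 1.16 and 1.49 against 1.81, were the lowest 2 of the list, and neither was called.

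Among 18 remaining nuclear factors 4 were called higher, Ier2, Id1, Hes1 and Csrnp1. Ier2 was at 41.4 and 48.1 against 7.26 to 31 (median 9.97), 1.97 ± 0.16, with no overlap. Id1, an inhibitor of basic helix-loop-helix factors and a BMP target, was at 53.9 and 57.4 (median 26, highest other strain 51.1), and the Notch target Hes1 was at 23.8 and 29.5 (median 16). Members that did not pass included Myc (9.7 and 10.6, median 10.2) and Ier3 (25.4 and 31.1, median 28.1). Of 5 KLF factors only Klf6 was called, at 37.3 and 38 (median 26.5), while Klf4 was at 23.2 and 23.7 (median 25.6). Mcl1, an anti-apoptotic BCL2 relative listed among other effectors, was not called, at 29.5 and 30.8 (median 30.7). Arc, a cytoskeleton-associated protein best known from neurons, was at 3.27 and 3.9 against 0.234 to 2.46 (median 0.713), 1.64 ± 0.25, with no overlap.

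Of 16 secreted and surface products 5 were called higher. The largest difference was that of Cxcl1, a neutrophil chemokine, which was at 6.45 and 5.27 against 0.249 to 154 (median 0.885). Its difference of 1.96 ± 0.71 was not called (it was with a pseudocount of 0.1 TPM, 2.43, and with a structural RNA covariate, 2.23), and CC051 lay far above CC045. Ccn1, a matricellular protein of bone and vessel, was at 144.5 and 163 against 32.7 to 124.9 (median 63.1), 1.28 ± 0.26, above every other library. Ereg, an EGF receptor ligand, was at 3.19 and 3.64 (median 0.975) and Edn1, the endothelin-1 precursor, at 0.518 and 0.485 (median 0.147), both called higher. The inflammatory members Il6, Ptgs2 and Ccl2 were within the range of other strains and were not called, but Il6 stood well above its median. Il6 was at 1.78 and 1.21 (0.0429 to 15.6, median 0.231), 1.27 ± 0.46, and CC045 ranked 2nd behind CC051. Ptgs2 was at 19.8 and 20 (4.75 to 78.2, median 10.8), where CC045 ranked 12th. Ccl2 was at 7.69 and 5.64 (0.805 to 253, median 6.79), where it ranked 20th. For these 3 the highest strain mean was that of CC051. The 2 CC051 libraries differed in their median log2 difference over the whole immediate early list (0.43 and -0.19). Of the 3 genes Il6 was called higher with the same pseudocount (2.12) and the same covariate (1.43).

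**Figure D2:**
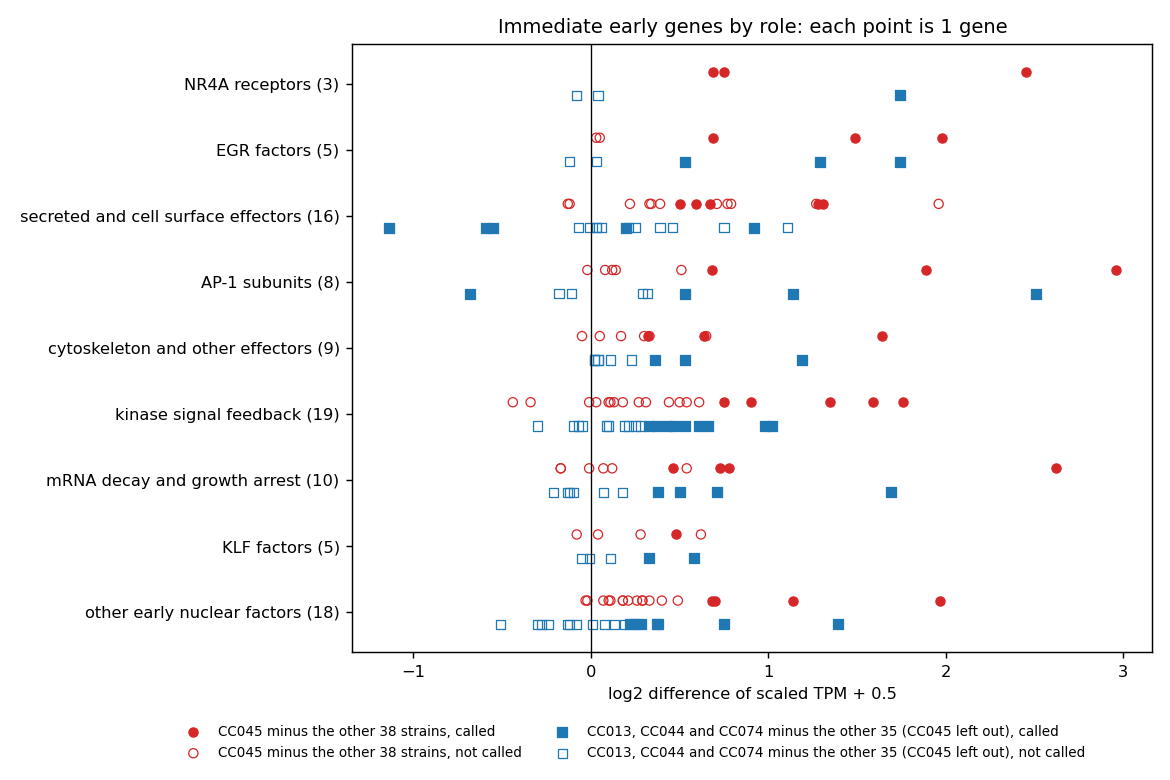
Each point is 1 immediate early gene, in rows by role (number of genes tested in brackets); the axis is the log2 difference, red circles CC045 minus the other 38 strains, blue squares CC013, CC044 and CC074 minus the other 35 strains with CC045 left out, filled where called. Fos is the rightmost point of both colours (2.96 and 2.51), and within most roles a few genes lie far right while the others lie near 0.

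Whether the same genes vary among the other 38 strains was tested with both CC045 libraries left out. These strains were the reference in the choice of CC045, and the filter on low values had counted the CC045 libraries. By limma's moderated F test over the other 38 strains, 89 of the 93 genes differed between strains at an adjusted p under the threshold, beside 81.1% of all genes tested. The 4 that did not were Cebpb, Srf, Phlda1 and Zfp36l2. For Fos the adjusted p was 6.83e-12, for Btg2 4.37e-15, for Egr2 4.81e-14 and for Ier2 2.69e-13. The 38 strains include CC013, CC044 and CC074, in which these 4 genes were also high, so this test and the comparison below are not independent.

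Sample titles end in a number, and no source used here says what it stands for. The CC045 samples are Farber_446 and Farber_447. The only other strains with numbers within 20 of these are CC013 (Farber_440 and Farber_442), CC074 (Farber_451 and Farber_452) and CC044 (Farber_453 and Farber_454). A comparison added after the data were seen set these 3 strains together against the other 35, with CC045 in neither group. In it 34 of the 93 immediate early genes (36.6%) were called higher and 4 (4.3%) lower, beside 8.00% and 6.96% of all genes. Fos was at 26.9 and 32.2 scaled TPM in the CC013 libraries, 28.8 and 34.6 in CC044 and 39.1 and 29.7 in CC074, against a median of 4.74 and a highest value of 23.2 (CC030) among the 35 strain means. The difference was 2.51 ± 0.17 (limma, adjusted p 1.24e-17). Here and below, the SE and p-value of this comparison rest on the spread between libraries of a strain. Spread between strains does not enter, so these p-values do not measure whether 3 strains differ from strains in general. All 6 of those Fos libraries lay above all 35 strain means and below both CC045 libraries.

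Other genes that stood high in CC045 were also high in these 3 strains. Btg2 was at 32.1, 24.3 and 22.1 (strain means of CC013, CC044 and CC074) against a median of 7.68, a difference of 1.69 ± 0.097 (limma, adjusted p 5.18e-21). Egr2 was at 6.09, 7.21 and 7.5, a difference of 1.74 ± 0.1 (2.04e-20), and Nr4a1 at 4.17, 7.76 and 6.48, also 1.74 ± 0.13 (1.17e-16). Ier2 (1.39 ± 0.096, adjusted p 1.5e-17), Junb (1.14 ± 0.16, 1.14e-07), Dusp1 (1.02 ± 0.11, 1.39e-10) and Egr1 (1.29 ± 0.14, 1.56e-10) followed. Among the genes called lower in the 3 strains were Plaur, the urokinase receptor (-0.59 ± 0.13), Hbegf, an EGF receptor ligand (-0.55 ± 0.17), and Fosl1 (-0.68 ± 0.18). In CC045 itself Plaur was called higher, at 27.7 and 30.5 against 17.5, 8.29 and 12.6 in the 3 strains. This comparison and that of CC045 share the same 35 strains as reference, so the counts are not independent of each other. Leaving out CC013, CC044 or CC074 gave 23, 28 or 25 genes called higher and 8, 1 or 3 called lower.

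Measured against CC013, CC044 and CC074 alone, CC045 had 11 immediate early genes called higher (11.8%) and 0 lower, beside 4.62% and 5.40% of all genes, with 77 of 93 differences above 0 and a median of 0.22. This count uses the CC045 values that singled out the strain, so nothing is read from it either. The 11 were Btg2 (1.07 ± 0.18), Nr4a1 (0.84 ± 0.24), Junb (0.84 ± 0.3), Nr4a2 (0.83 ± 0.23), Dusp1 (0.82 ± 0.21), Plk3 (0.72 ± 0.16), Ier2 (0.69 ± 0.18), Dusp5 (0.69 ± 0.19), Nr4a3 (0.65 ± 0.11), Plaur (1.22 ± 0.24) and Edn1 (0.41 ± 0.13). Fos (0.65 ± 0.33), Egr2 (0.38 ± 0.2), Egr1 (0.3 ± 0.26), Arc (0.55 ± 0.29) and Errfi1 (0.79 ± 0.42) were not called against these 3 strains. Whether strain or what the title number stands for underlies the shared part of the pattern cannot be told apart, since no strain has libraries both near and far from these numbers.

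**Figure D3:**
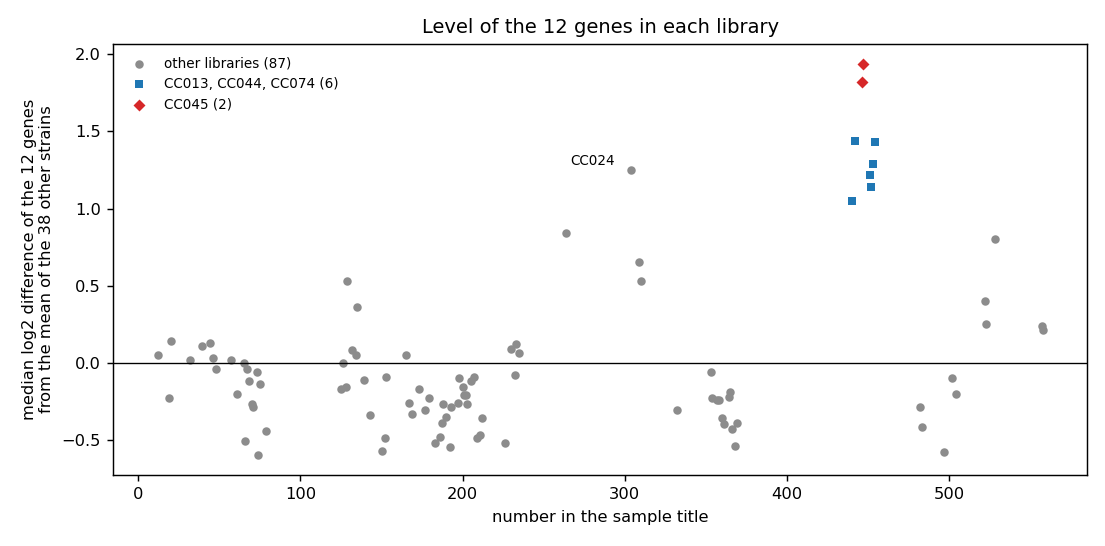
Each point is 1 of 95 libraries: the number in its sample title against the median, over the 12 genes highest in CC045, of its log2 difference from the mean of the 38 other strains. The 2 CC045 libraries (1.82 and 1.94) and the 6 of CC013, CC044 and CC074 (1.05 to 1.44) are neighbours in number, and the other 87 lie between -0.6 and 1.25.

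Summarized per library as the median of the 12 genes, the log2 difference from the mean of the other 38 strains was 1.82 and 1.94 in CC045. It ran from 1.05 to 1.44 in the 6 libraries with close title numbers and from -0.6 to 1.25 in the remaining 87. The 12 genes were picked on CC045, so its own position in this summary is fixed by the choice. Between the 2 CC045 libraries the 12 levels differed by at most 1.26-fold. Library composition in CC045 lay within the range of the others: structural RNAs took 59.3 and 61.6% of its TPM (50.5 to 64.5% in the others), mitochondrial genes 1.99 and 1.81% (1.43 to 3.27%), and the scaling factors were 0.967 and 0.879 (0.773 to 1.27). TPM carries no read depth, so the depth behind these values is unknown.

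Of 34 tested receptors, kinases and transcription factors that act upstream of immediate early genes 1 was called higher and 0 lower, beside 5.02% and 5.06% of all genes, with a median of -0.07. That one was the CREB relative Atf1 (11.9 and 13.4, median of the others 10.1), which shares 16.1% of its sequence words with a pseudogene and is uncertain. Its call was lost with either CC045 library left out (0.38 and 0.22). Srf itself was at 9.59 and 9.94 (7.08 to 10.2). Contractile and cytoskeletal targets of serum response factor and its MRTF partners had 2 of 27 called higher and 1 lower in CC045, with a median of 0.14. Cnn1, calponin of smooth muscle, was at 22.4 and 24.3 (median 8.23), Myh11, smooth muscle myosin, at 2.0 and 1.75 (0.512) and Pdlim7 at 10 and 10.6 (15.4). Myh11 lost the call without replicate 1 (0.96). In CC013, CC044 and CC074, by contrast, 11 of the 27 were called lower and 1 higher than in the other 35 strains, beside 6.96% and 8.00% of all genes. Tagln was among those lower, at 146, 31.9 and 104 against a median of 163.7 (limma, -1.06, adjusted p 8.29e-08). In CC045 Tagln was at 220.0 and 236. The 3 strains were not alike: CC044 had the lowest strain mean for Tagln, Cnn1 and Pdlim7, and Pdlim7 in CC013 was at 16.1 (median 15.5). Myh11 was low in all 3, at 0.292, 0.105 and 0.2 (median 0.587).

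Lists of other stress and signalling programmes varied in their share of calls, beside 5.02% of all genes called higher. Targets of YAP and TEAD had 3 of 17 called higher (Ccn1, F3 and Ajuba). The p53 list had 5 of 14, a share like that of the immediate early list, among them Trp53inp1 at 20 and 23.5 (median 12.9) and Ccng1 at 92.1 and 106 (median 66.5). Ccn1 and F3, and Cdkn1a among the p53 calls, are also on the immediate early list, so these counts overlap with its own. Without CC045 replicate 2 the p53 count was 0, and without replicate 1 it was 3. F3 (0.34) and Cryab (1.07) lost the call without replicate 1. Heat shock genes had 2 of 18 called: the small heat shock protein Cryab (29.7 and 27.2, median 18.5) and Hspa1b, which cannot be separated from its near-identical neighbour Hspa1a. The integrated stress response (17 genes), NF-kB (20) and circadian (16) lists had 0 called in either direction. Per1, a clock gene that is also cyclic AMP responsive, was at 2.35 and 2.2, the highest strain mean, and was not called (0.55 ± 0.23). Of 18 later AP-1 targets 1 was called higher (Plaur, above) and 1 lower: the collagenase Mmp13 was at 327 and 252 against a median of 771.5, while Mmp3, at 1.08 and 1.64 against 6.34, was not called.

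**Figure D4:**
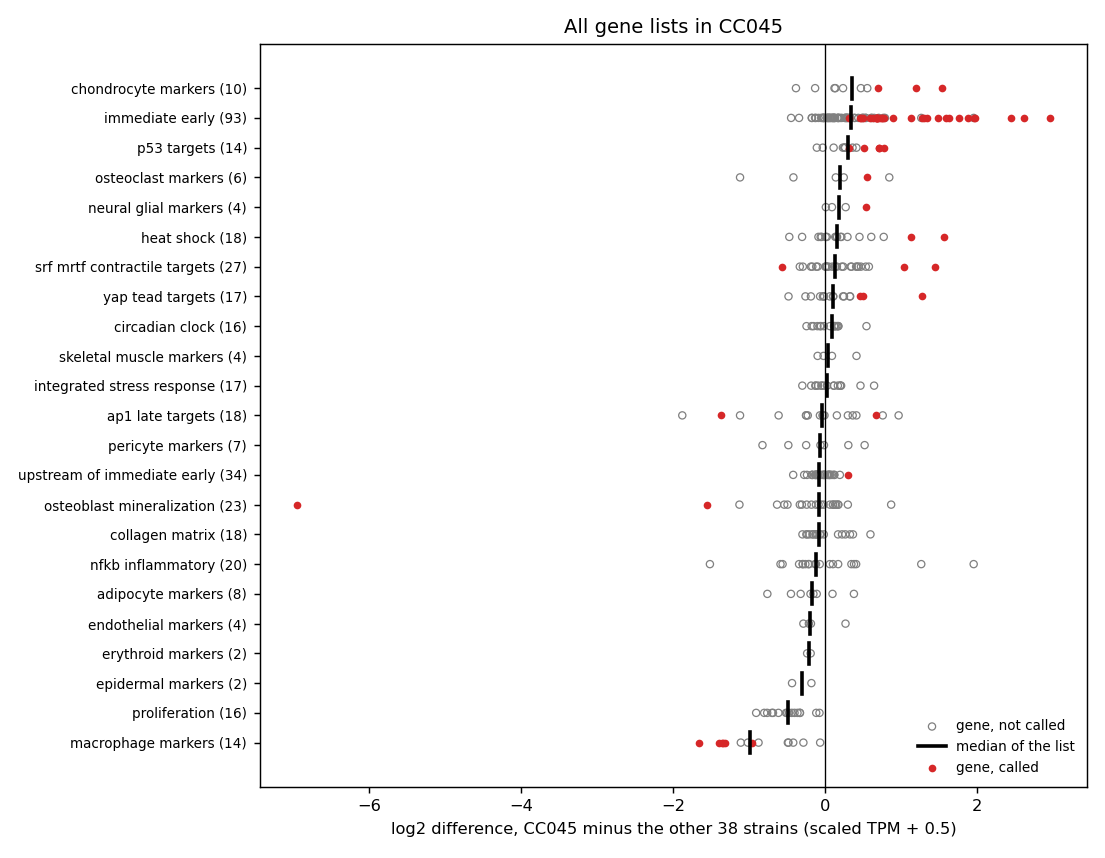
Log2 difference of CC045 from the other 38 strains for every tested gene of 23 lists (number tested in brackets), red where called, with a black bar at each list's median. The immediate early list has the longest tail to the right (up to 2.96), the macrophage list lies to the left (median -0.98), and the far left point is Bglap2 (-6.94), which shares most of its sequence with Bglap.

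Markers of bone-forming cells lay within the range of other strains in sum. Their summed level was 18004 and 17737 scaled TPM in CC045 against 12432 to 29888 (median 19468). Of 23 markers 2 were called lower, beside 5.06% of all genes. Phex, an endopeptidase of osteoblasts and osteocytes, was at 5.32 and 5.04 (median 18.6), and lost the call with either CC045 library left out (-1.58 and -1.51). Bglap2 was at 5.37 and 2.57 against a median of 830.6, while its near copy Bglap was at 1040.0 and 1085 (median 794.6). Osteocalcin reads can be split between these 2 genes, so neither is read alone. The collagen matrix list had 0 of 18 called.

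Of 14 macrophage markers, 14 had differences below 0 in CC045, beside 8405 of the 15760 over all genes. Of them 6 were called lower, beside 5.06% of all genes. The summed level was 109 and 114 against 27.6 to 1939.9 (median 204.7), rank 28 of 39. In bulk RNA fewer cells of a type and less RNA per cell cannot be told apart. Cd14, a co-receptor for lipopolysaccharide, was at 1.45 and 1.88 (median 7.9), Csf1r, the receptor macrophages need for survival, at 2.49 and 2.8 (7.82) and C1qb at 8.25 and 7.44 (18.3). The number called was 3 without CC045 replicate 1 and 1 without replicate 2. In the strains with close title numbers the summed level was 60.5 in CC013, below CC045, and 294.6 in CC044 and 483.4 in CC074, both above the median. The part of these markers in the pattern was not tested. Proliferation genes had 16 of 16 differences below 0, beside the same 8405 of 15760, and 0 called. Their median was -0.48 (Mki67 at 1.73 and 1.57, median 2.8, and Mcm5 at 1.34 and 1.6, the lowest strain).

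Some cartilage genes stood higher. Of 10 chondrocyte markers 3 were called higher, beside 5.02% of all genes. They were Col2a1 (25.3 and 22.6, median 8.6), Col9a2 (6.64 and 5.92, median 2.9) and Sox9, the master factor of the lineage (2.2 and 1.83, median 1.04). Of the 10 differences 8 were above 0 and 2 below, down to -0.38. Comp (41.6 and 23.9, median 27.4) and Col9a1 (8.16 and 5.56, median 4.6) were among those not called. The summed level of the list was 93.6 and 65.4 (17.5 to 116, rank 10). The count called higher was 0 without replicate 1 and 2 without replicate 2. Col2a1 (1.46, 1.62) and Col9a2 (1.13, 1.28) lost the call with either left out. Of 6 osteoclast markers tested, 4 differences were above 0 and 2 below. Only Ctsk, the osteoclast protease, was called higher, at 293.5 and 284 (median 205.1). Those below were Mmp9 (0.45 and 0.66, median 2.2) and Nfatc1 (0.798 and 0.809, median 1.19), neither called. Calcr was listed at 0 in both libraries. Endothelial, skeletal muscle, pericyte, adipocyte, epidermal and erythroid lists had 0 called, and Pecam1, Emcn, Ckm, Myod1, Myog, Krt5, Krt14, Krt18, Hbb-bs, Hbb-bt and Cfd were listed at 0 in both CC045 libraries. Of 4 neural and glial markers Map2 was called (1.59 and 1.22, median 0.824; not with either library left out, 0.41 and 0.69) and Olig2 was listed at 0.

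Over all 15760 genes 791 were called higher and 797 lower in CC045. Without further scaling of the deposited TPM the split was 396 and 927, and with 1 CC045 library left out the counts were 404 to 409 and 352 to 370. The genes named outside the lists, here and below, are the extremes of this contrast, so nothing is read from their kind. The highest included the cartilage genes Cnmd, chondromodulin, at 15.9 and 11.9 (0.0808 to 10.3, median 1.45) and Col9a3 at 15.1 and 13.5 (0.718 to 10.1, median 2.79). Rgs4, which shortens G-protein signalling, was at 27.1 and 27.5 (median 6.14) and in CC013, CC044 and CC074 at 5.49, 1.38 and 0.612. Stmn2, a microtubule-destabilizing protein, was at 14.0 and 15.2 (median 2.76) and Id4 at 13.6 and 13.8 (median 3.52). Lgr5, a receptor for R-spondins, was at 10.7 and 11.4 (median 1.37), below CC030 at 25.7. Isoc2b, Fxyd6, Ifit1, Nnmt, Pttg1 and Frzb completed the 12, with differences of 1.39 to 2.4. Ifit1 (1.43, 1.68) and Frzb (1.31, 1.47) lost the call with either CC045 library left out, and Pttg1 without replicate 1 (1.47).

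The lowest genes outside the lists held transcripts of blood-derived cells, Ms4a7 (0.872 and 0.97, median 11.3), Cd52 (0.564 and 0.348, median 4.34), Coro1a (1.66 and 2.07, median 7.0) and the scavenger receptor Msr1 (2.76 and 3.08, median 11.2). Others are not of that kind. Steap3, a ferrireductase, was at 2.28 and 3.24, below all 90 other libraries (strain means 4.78 to 19.8), as was Spout1 at 1.06 and 1.55 (3.31 to 7.83). Il33, an alarmin cytokine, was at 0.289 and 0.377 (median 7.13), Thy1, a surface glycoprotein of stromal cells, at 20.3 and 15.1 (median 64.8) and Wif1, a WNT inhibitor made by osteoblasts, at 9.77 and 7.64 (median 33.9). Serpina3n (0.608 and 0.354, median 2.51) and Gstm2 (14.3 and 11.9, median 48.4) were also among the 12. Msr1 lost the call with either CC045 library left out (-1.41, -1.55) and Serpina3n without replicate 2 (-1.64). Rps25, at 8.74 and 6.81, fell in the lower of 2 separate levels seen across strains (6.51 to 1110.4) and is uncertain because the gene has pseudogene copies.

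**Figure D5:**
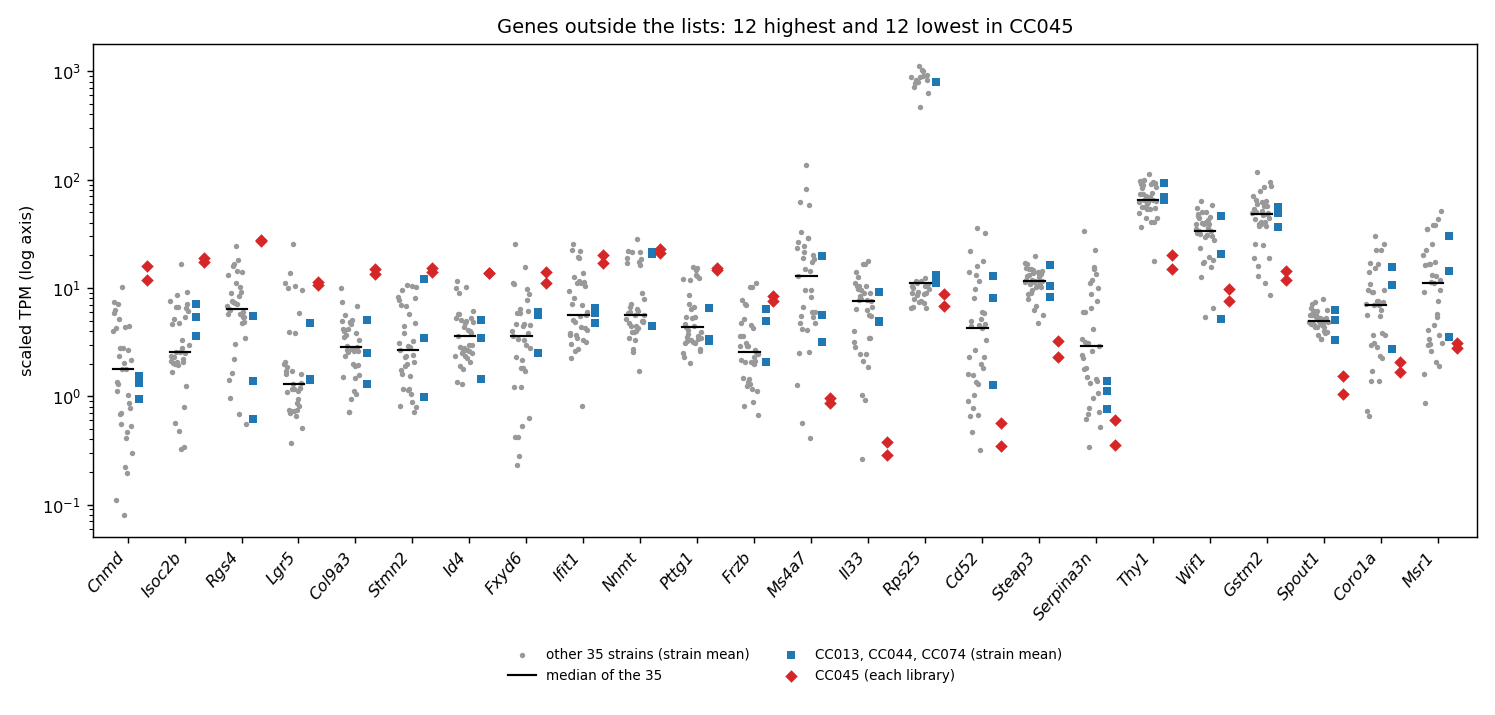
Scaled TPM on a log axis of the 12 highest and 12 lowest genes outside the lists in CC045: grey points are the means of 35 strains with a line at their median, blue squares CC013, CC044 and CC074, red diamonds the 2 CC045 libraries. Rgs4 lies at 27.1 and 27.5 in CC045, Steap3 and Spout1 lie below every other strain, and Rps25 shows 2 separate levels.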

How the data were processed

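Total RNA of 96 samples was sequenced by the authors, and 1 deposited table gives a value per transcript and sample. Its columns each sum to 1000000, so the deposited values are transcripts per 1000000 (TPM) rather than read counts, and no count model was used. Bowtie and the mm9 build are named in the submitters' processing notes; the quantification step and its settings are not given in the sources used here. Values of 94545 transcripts were summed per gene over 37945 genes, and the 2 runs of 1 CC030 sample were averaged (95 libraries). No column was left unused (0).

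Libraries were scaled by a trimmed mean of log ratios (30% trimmed by ratio and 5% by level, genes of mean 1 TPM or more). The 15760 genes that reached 0.5 TPM in 2 libraries were fitted as log2(scaled TPM + 0.5) with limma 3.58.1 in R 4.3.3, with a variance trend, over 39 strains and 92 libraries sharing 1 estimate of spread. The contrast was CC045 minus the equally weighted average of 38 strains. Its p-values were adjusted (Benjamini-Hochberg) jointly with those of every other strain, and calls used a false discovery rate of 0.05. Strains of 1 library stayed out. The limma tests without CC045 were two-sided or F tests adjusted over all genes. All SEs and p-values rest on the spread between libraries of a strain. The fit was tested on simulated data.

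CC045, the list of immediate early genes and the other 22 lists were chosen with earlier results of these data known. Named are the 12 highest and 4 lowest immediate early genes in full and any other of that list, up to 5 members with the largest absolute difference per other list (or a marker listed at 0), and outside the lists the 12 highest and 12 lowest called protein-coding genes of at least 5 scaled TPM that share under 10% of their 31-base words with another gene. Alternatives covered the pseudocount, the filter, the scaling, the reference strains, the trend, the repeated run, a structural RNA covariate and each CC045 library left out. The values of 1 listed gene are not reported here.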

Additional observations from a re-analysis of the deposited data

Results flagged for a closer look

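CC024 has 1 library (Farber_304) and so entered no comparison other than the alternative that adds strains of 1 library to the reference. In it the median log2 difference of the 12 genes that stood highest in CC045 was 1.25, above each library of the 35 strains outside the comparison of close title numbers, of which the highest was a CC040 library at 0.84. Fos was at 22.2 scaled TPM and Btg2 at 14.1 in the CC024 library. The other 2 strains with 1 library were at 0.8 (CC035) and -0.36 (CC011). With 1 library there is no replicate check for CC024.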

How the results depend on the processing

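The count of immediate early genes called higher in CC045 lay between 25 and 33 under a pseudocount of 0.1 or 1 TPM, no filter, deposited TPM, median of ratios scaling, strains of 1 library in the reference, no variance trend, the first run only, a structural RNA covariate and adjustment over the CC045 comparison alone. It was 11 against CC013, CC044 and CC074, where the reference is only 3 strains, and 20 to 25 with 1 CC045 library left out. The median of the list was 0.22 both on deposited TPM, where the median of all genes moved to -0.11, and against the 3 strains, and 0.33 to 0.4 elsewhere. On deposited TPM 396 genes were called higher (791 after scaling). With 1 CC045 library left out 404 to 409 genes were called higher and 352 to 370 lower. The number of immediate early genes that differed between strains without CC045 ran from 86 to 90. Of 157 named genes, 1 called gene reversed: Rnd3 stood at -0.01 against CC013, CC044 and CC074. Another 28 called genes were no longer called against those 3 strains, 11 on deposited TPM, 18 without CC045 replicate 1 and 22 without replicate 2. Genes not called gained a call with a pseudocount of 0.1 TPM (Cxcl1 2.43, Il6 2.12, Mmp3 -2.1, Kcnj8 -1.27 and Mcm5 -1.05), with a structural RNA covariate (Cxcl1 2.23, Il6 1.43 and Mcm5 -1.02), on deposited TPM (Mcm5 -0.99) and against CC013, CC044 and CC074 (Postn 0.84). No paired analysis was possible because the strains share replicate numbers that only count libraries in accession order. The small number of libraries per strain and the unknown read depth limit the precision of low genes such as Fosb, Nr4a3 and Edn1.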

Other observations

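Transcript models within the immediate early genes also differed in share. In CC045 the non-coding models of Fos held 3.14 and 5.11% of the gene's TPM, against 4.4 to 18.8% (median 9.77%) in the means of the other 38 strains. For Dusp1 the retained-intron models held 53.3 and 49.3%, against 51.0 to 81.7% (median 63.6%). These shares were not tested and come from the authors' assignment of reads to transcripts. Egr4, the only listed gene under the filter, was at 0.0601 and 0.149 scaled TPM in CC045 and was listed at 0 in 36 libraries.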
